A study of Saccharomyces cerevisiae with 30 samples.

Results

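The 49 genes described here encode the machinery that copies the genome before meiosis. They were taken from a list of replication genes grouped by role, and are 49 of the 7126 genes counted in every library. By role they comprise 6 subunits of the MCM helicase, 6 of the origin recognition complex, 9 loading and firing factors, 9 subunits of the replicative DNA polymerases and primase, 6 genes of the sliding clamp and its loader, 3 of replication protein A (RPA), 5 of nucleotide supply and 5 fork and Okazaki fragment factors.

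The libraries came from a study of m6A, a methyl mark on mRNA, in budding yeast, and measured mRNA on polysomes, the fraction bound by several ribosomes, with 3 biological replicates of each of 2 genotypes after 5 h in sporulation (SPO) medium. Both genotypes were a/alpha diploids of SK288C, an S288C laboratory strain carrying SK1 alleles of *TAO3* and *MKT1*, and both were homozygous for *rme1-S288C*, the well expressed allele of a repressor of meiotic entry, with mutations in *his3*, *leu2*, *lys2* and *ura3*. The wild type was *IME4*/*IME4*, and the mutant was homozygous for *ime4-cat*, an allele of the m6A methyltransferase gene that gives a catalytically inactive protein. A further 12 RNA-seq libraries have titles that disagree with the strain number or letter attached to them and entered no comparison, and 12 m6A-seq samples were not analysed here.

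Premeiotic S phase uses nearly the same proteins as mitotic S phase. The origin recognition complex marks origins, Cdc6 helps to load the MCM ring there, and the Cdc7-Dbf4 kinase together with Sld2, Sld3 and Dpb11 recruits Cdc45 and the GINS complex, which turn the ring into a moving helicase. Polymerase alpha-primase lays down the primers, polymerase epsilon extends the leading strand and polymerase delta the lagging strand, the clamp Pol30 holds polymerases on DNA and RPA coats the exposed single strands. Ribonucleotide reductase supplies the deoxyribonucleotides. In dividing cells many of these genes are transcribed as cells enter S phase, through the MCB element ACGCGT, which is bound by MBF (Mbp1 and Swi6), whereas early meiotic genes carry URS1, bound by Ume6.

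The MCB lay in the 250 bases before the start codon of 23 of the 49 genes (46.9%), against 174 of 6001 promoters of the genome (2.90%). The letters read the same on both strands, so that 1 search covered both. The copy nearest the start codon began 107 to 240 bases upstream of it. The following 30-base windows, from the RefSeq R64 genome and written 5′ to 3′ on the gene's own strand with each MCB in capitals, show the element in 3 genes of polymerase alpha-primase, in the clamp and in 2 RPA genes that fell in *ime4-cat*, and then in 3 genes that did not.
*POL1*, chrXIV:429902-429931, plus strand: cctataagtaaaACGCGTcgcgtgtatcca
*POL12*, chrII:153792-153821, minus strand: ttttttaccgtgACGCGTctcaccagagtt
*PRI2*, chrXI:353316-353345, plus strand: tgatttgaaattACGCGTcgcggggaatcg
*POL30*, chrII:425944-425973, minus strand: ccaaaacgcgaaACGCGTaacttttttttt
*RFA1*, chrI:158737-158766, minus strand: aggcgacaaaagACGCGTgaactaacataa
*RFA2*, chrXIV:48167-48196, plus strand: ACGCGTtaggaaACGCGTtctttcctttat
*RNR3*, chrIX:240878-240907, minus strand: tgtgagatgctgACGCGTttcgtttttcgt
*POL31*, chrX:449083-449112, plus strand: acgattaatcagACGCGTctgattaatttc
*MRC1*, chrIII:22204-22233, minus strand: agaatgcgtaaaACGCGTttgcttcaatag

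The 6 libraries held 586141 to 1262397 reads counted on genes, and counts of the 49 genes ranged from 4 to 710 per library. Levels are given as CPM, read counts brought to an equal library size by the TMM method of edgeR, and each gene was tested among 5493 genes with edgeR's quasi-likelihood test and Benjamini-Hochberg adjustment (the edgeR adjusted p below), with a call at an adjusted p under 0.05. Of all genes, 17.7% were called, 8.28% higher and 9.38% lower in *ime4-cat*. *IME4* (YGL192W) was read in every library, at a mean of 184 ± 29.7 CPM in wild type and 127 ± 30.3 in *ime4-cat* (SD, n = 3 each; edgeR adjusted p = 0.058), and since the allele leaves the mRNA in place its count does not check the labels. *RME1* (YGR044C), the repressor gene, was at 81.3 ± 7.90 CPM and 165 ± 5.65 CPM (log2 fold change 1.02, edgeR adjusted p = 0.00014).

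Of the 49 replication genes, 17 were lower in *ime4-cat*, 2 were higher and 30 were not called. The genes that fell encode 1 of the 6 subunits of the MCM helicase (*MCM6*) and 3 of its activators (*CDC45*, *CDC7*, *DBF4*). Others encode all 4 subunits of polymerase alpha-primase, the catalytic subunit of polymerase epsilon, the clamp, a subunit of its loader and all 3 subunits of RPA. The rest were the genes of a fork protein and of thymidylate synthase and, by the widest margin, *RNR1*. The 2 genes that rose, *RNR2* and *RNR4*, encode the small subunits of ribonucleotide reductase. The fitted log2 fold change was negative in 39 of the 49 genes, with a median of -0.34 beside a median of -0.01 over all genes tested. In 24 of the 49 every *ime4-cat* library was below every wild-type library, and in 4 every one was above, where 17.2% and 15.2% of all genes tested separated in these directions.

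Summed over the 49 genes, the libraries held 5878, 5932 and 5615 CPM in replicates 1, 2 and 3 of wild type and 4954, 4659 and 4709 CPM in those of *ime4-cat*, a ratio of 0.822 between the means. The groups did not overlap. The same ratio was 1.21 for nucleotide supply, which holds the 2 genes that rose. In the other roles it ran from 0.553 (RPA) to 0.998 (origin recognition complex). The 12 early meiotic marker genes (*IME1*, *IME2*, *DMC1* and 9 others) were all lower in the same *ime4-cat* libraries, their summed level running from 5209 to 5788 CPM in wild type and from 1663 to 1959 CPM in *ime4-cat*, and none was at 0. Their part in the change of the replication genes was not tested. All libraries compared were polysomal, with no total RNA beside them. Fewer cells in premeiotic S phase, less of each mRNA per cell and a smaller share of it on polysomes therefore cannot be told apart. Of 10 haploid markers, which an a/alpha diploid represses, 6 were tested and 0 called by edgeR (1 at an unadjusted p under 0.05), and none of the 10 passed 40 counts in any library, and none of 5 mitotic G1 cyclin genes was called. Without *ime4-cat* replicate 3 the number of replication genes called lower was 11, and the number called higher was 0 without wild-type replicate 3 and 1 without wild-type replicate 1, *ime4-cat* replicate 2 or *ime4-cat* replicate 3.

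**Figure D1:**
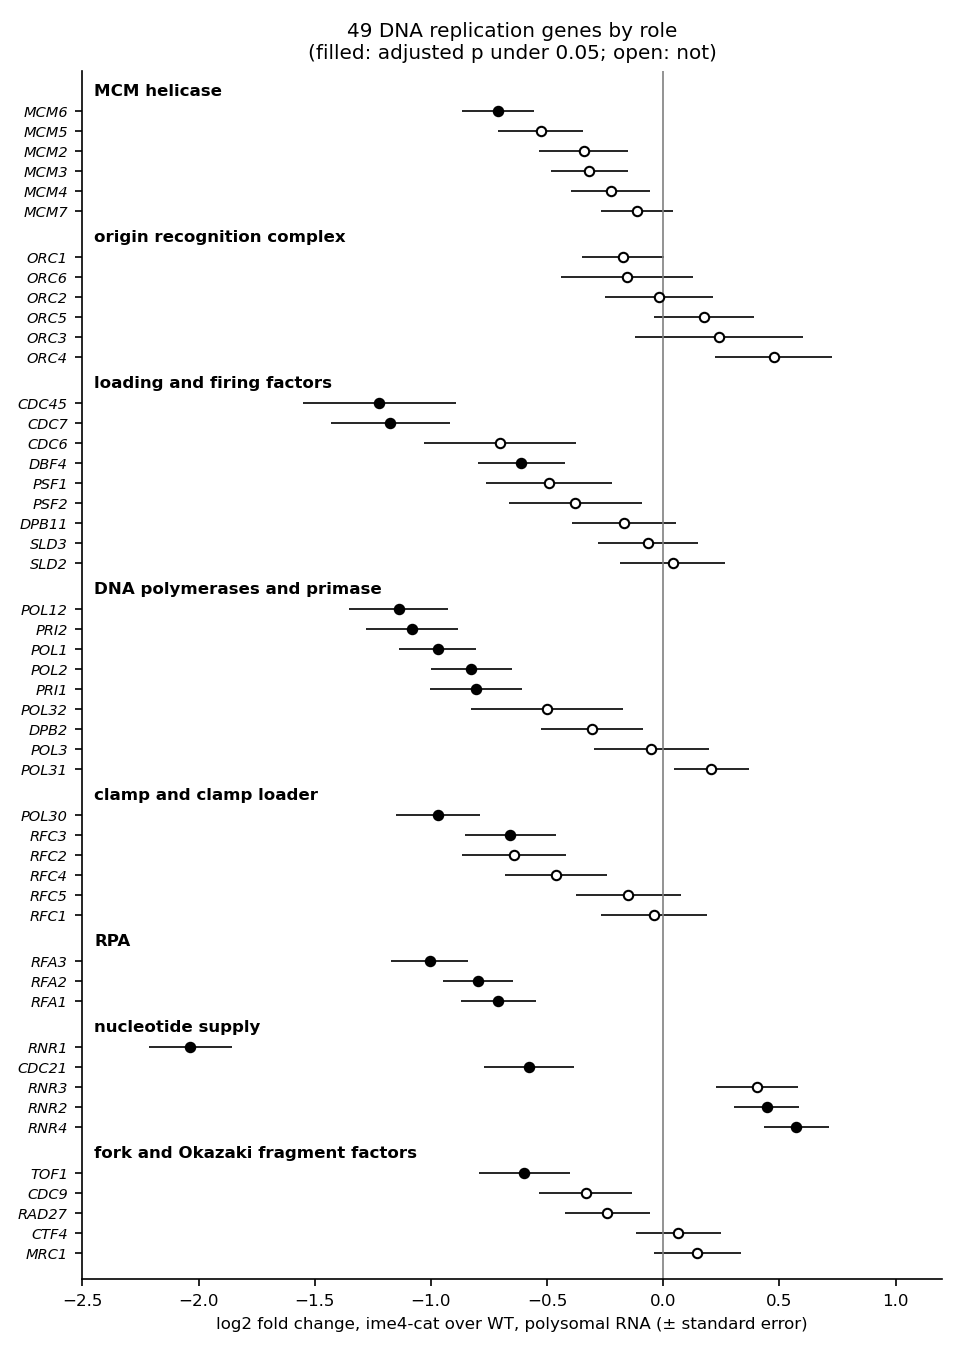
Log2 fold change in polysomal RNA of *ime4-cat* over wild type (horizontal axis) for each of the 49 genes (rows, grouped by role), with bars for the standard error of the fit over 3 libraries a genotype; filled points have an edgeR adjusted p under 0.05. The 3 RPA genes and 4 polymerase alpha-primase genes are filled and left of 0, the 6 origin recognition genes are open and lie on both sides of 0, and *RNR1* stands farthest left at -2.04.

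The origin recognition complex showed no called change. Its 6 genes had log2 fold changes from -0.17 (*ORC1*) to 0.48 (*ORC4*), the smallest edgeR adjusted p among them was 0.22, and their summed level was 240 to 268 CPM in wild type and 216 to 280 CPM in *ime4-cat*. The ranges overlapped. *ORC4*, which encodes a subunit of the ring that holds origin DNA, was at 22.6, 21.5 and 26.7 CPM in wild type and 33.8, 31.7 and 34.5 CPM in *ime4-cat*, groups that did not overlap but did not pass the test (edgeR adjusted p = 0.22). *ORC3* was the least abundant of the 49 genes in wild type, at 5.87, 4.98 and 8.65 CPM per kb of gene beside 9.70, 6.04 and 7.46 in *ime4-cat* (log2 fold change 0.24 ± 0.36 SE, edgeR adjusted p = 0.71). Its groups overlapped.

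Of the 6 MCM genes, which encode the subunits of the replicative helicase ring, only *MCM6* passed the test. *MCM6* (YGL201C) was at 168, 175 and 175 CPM in replicates 1, 2 and 3 of wild type and at 116, 95.1 and 102 CPM in those of *ime4-cat*. The groups were well apart, and the log2 fold change was -0.71 ± 0.16 (SE; edgeR adjusted p = 0.0031). The other 5 had log2 fold changes from -0.53 to -0.11. *MCM5* was the nearest to the threshold, at 97.8, 137 and 110 CPM in wild type and 89.8, 65.2 and 75.9 CPM in *ime4-cat* (log2 fold change -0.53 ± 0.18 SE, edgeR adjusted p = 0.052), and it passed in 7 of 13 alternatives, which include limma and DESeq2 (adjusted p 0.011 to 0.17). The 7 were library sizes alone, limma, both other filters on low counts, the fits without wild-type replicate 1 or *ime4-cat* replicate 1, and the replicate number as a block, a fit that called 29.2% of all genes, 14.7% higher and 14.6% lower. *MCM2*, *MCM3*, *MCM4* and *MCM5* did not overlap between genotypes, all lower in *ime4-cat*, while *MCM7* did. The ratio of *MCM6* to *MCM7* per kb was 0.677, 0.803 and 0.774 in wild type and 0.484, 0.424 and 0.591 in *ime4-cat*, which did not overlap either (two-sided exact permutation p = 0.1, the smallest that 3 libraries against 3 allow).

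Among the loading and firing factors, 3 of 9 fell. *CDC7* (YDL017W), the kinase that phosphorylates the MCM ring, was at 76.1, 63.0 and 73.9 CPM in wild type and at 18.0, 46.6 and 38.0 CPM in *ime4-cat* (log2 fold change -1.17 ± 0.26 SE, edgeR adjusted p = 0.0030). All *ime4-cat* libraries were below wild type, with replicate 1 the lowest. *CDC45* (YLR103C), which joins the ring to make the active helicase, was at 47.1, 30.7 and 32.0 CPM in wild type and 22.2, 14.9 and 6.90 CPM in *ime4-cat* (log2 fold change -1.22 ± 0.33 SE, edgeR adjusted p = 0.013). The groups were apart, but the gene had few counts, and the call was lost without wild-type replicate 1 (edgeR adjusted p = 0.059) or *ime4-cat* replicate 3 (0.092; 0.00044 to 0.092 over 12 alternatives). *DBF4* (YDR052C), the regulatory subunit of the Cdc7 kinase, was at 246, 172 and 215 CPM in wild type and 181, 104 and 123 CPM in *ime4-cat* (log2 fold change -0.61 ± 0.19 SE, edgeR adjusted p = 0.028). Its groups overlapped, since *ime4-cat* replicate 1 was above wild-type replicate 2, and its call was lost without wild-type replicate 1 or 3 or *ime4-cat* replicate 2 or 3 and with DESeq2 (adjusted p 4.7e-05 to 0.15 over 13 alternatives, from edgeR, limma or DESeq2).

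The other 6 factors, *SLD2*, *SLD3*, *DPB11*, the GINS genes *PSF1* and *PSF2*, and *CDC6*, had log2 fold changes from -0.70 to 0.04 and none passed. *CDC6*, the loader of the MCM ring, ranked 48th of the 49 genes per kb in wild type and 47th in *ime4-cat*, at 14.7, 14.9 and 12.4 CPM per kb in wild type and 9.59, 6.05 and 8.96 in *ime4-cat*. *CDC45* ranked 45th in wild type and 49th in *ime4-cat*, at 24.1, 15.7 and 16.4 CPM per kb and then 11.4, 7.64 and 3.54. Both genes separated between the genotypes, yet the log2 fold change of *CDC6* was -0.70 ± 0.33 (SE) with an edgeR adjusted p of 0.15.

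The called polymerase genes, 5 of 9, were those of polymerase alpha-primase and the catalytic subunit of polymerase epsilon. All 4 genes of polymerase alpha-primase fell, their summed level going from 414, 399 and 380 CPM in wild type to 190, 199 and 207 CPM in *ime4-cat*, a ratio of 0.50. *POL1* (YNL102W), the catalytic subunit, was at 134, 141 and 127 CPM in wild type and 65.5, 67.1 and 72.5 CPM in *ime4-cat* (log2 fold change -0.97 ± 0.17 SE, edgeR adjusted p = 0.00036). *POL12* (YBL035C), its regulatory subunit, was at 111, 114 and 77.7 CPM and then 40.1, 41.0 and 55.2 CPM (log2 fold change -1.14 ± 0.21 SE, edgeR adjusted p = 0.00080). No library of either gene overlapped with the other genotype. *PRI1* (YIR008C), the catalytic subunit of primase, was at 73.4, 70.6 and 71.7 CPM and then 43.3, 44.7 and 34.5 CPM (log2 fold change -0.81 ± 0.20 SE, edgeR adjusted p = 0.0069). *PRI2* (YKL045W), the large subunit of primase, was at 96.0, 73.7 and 104 CPM and then 41.2, 46.6 and 44.9 CPM (log2 fold change -1.08 ± 0.20 SE, edgeR adjusted p = 0.00071). These groups did not overlap either. The call of *PRI1* was lost without *ime4-cat* replicate 3 (edgeR adjusted p = 0.054; 0.00039 to 0.054 over 13 alternatives), while those of *POL1*, *POL12* and *PRI2* were kept in all 13.

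*POL2* (YNL262W), the catalytic subunit of polymerase epsilon, was at 191, 255 and 242 CPM in wild type and 102, 134 and 155 CPM in *ime4-cat* (log2 fold change -0.83 ± 0.17 SE, edgeR adjusted p = 0.0021). Its libraries were apart, as were those of *DPB2*, a second subunit of that enzyme, although *DPB2* did not pass (log2 fold change -0.31 ± 0.22 SE, edgeR adjusted p = 0.38). Polymerase delta showed no called change in any of its 3 genes. *POL3*, its catalytic subunit, was at 42.6, 55.3 and 60.2 CPM in wild type and 49.6, 29.8 and 72.5 CPM in *ime4-cat* (log2 fold change -0.05 ± 0.25 SE, edgeR adjusted p = 0.93). *POL31* had a log2 fold change of 0.21 ± 0.16 (SE) and *POL32* of -0.50 ± 0.33 (SE). The summed level of the 3 genes was 188, 169 and 189 CPM in wild type and 203, 157 and 207 CPM in *ime4-cat*, and these ranges overlapped. The ratio of *POL1* to *POL3* per kb was 1.95 ± 0.388 in wild type and 1.14 ± 0.485 in *ime4-cat* (SD, n = 3 each). The ranges overlapped in 1 *ime4-cat* library, at 1.68 beside a lowest wild-type value of 1.58, and the test could not pass at this number of libraries (two-sided exact permutation p = 0.2, where 0.1 is the smallest possible).

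The clamp fell with the RPA genes. *POL30* (YBR088C), which encodes the clamp PCNA, was at 228, 361 and 236 CPM in wild type and 126, 160 and 133 CPM in *ime4-cat* (log2 fold change -0.97 ± 0.18 SE, edgeR adjusted p = 0.00082). In both genotypes replicate 2 was the highest, and the groups did not overlap. Of the 5 genes of RFC, the complex that opens the clamp and places it on DNA, only *RFC3* passed: *RFC3* (YNL290W) was at 114, 117 and 90.7 CPM and then 73.9, 46.6 and 77.7 CPM (log2 fold change -0.66 ± 0.20 SE, edgeR adjusted p = 0.024). These did not overlap, but the call was lost without wild-type replicate 1 or 2 or *ime4-cat* replicate 2 and with DESeq2 (adjusted p 0.0014 to 0.097 over 13 alternatives, from edgeR, limma or DESeq2). *RFC2*, at a log2 fold change of -0.64 ± 0.22 (SE), missed the threshold narrowly (edgeR adjusted p = 0.051; 0.016 to 0.20 over 13 alternatives). *RFC1*, *RFC4* and *RFC5* had log2 fold changes from -0.46 to -0.04. *RFC5* and *POL30* are neighbours on chromosome II that converge with 160 bases between them, and *POL2* and *ORC5* are neighbours on chromosome XIV on the same strand, 219 bases apart. In each pair 1 gene fell and the other was not called.

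All 3 genes of RPA fell, from a summed 944, 1006 and 907 CPM in wild type to 565, 546 and 470 CPM in *ime4-cat*, a ratio of 0.553. *RFA1* (YAR007C), the large subunit, was at 313, 256 and 288 CPM in wild type and 217, 157 and 145 CPM in *ime4-cat* (log2 fold change -0.71 ± 0.16 SE, edgeR adjusted p = 0.0044). *RFA2* (YNL312W), the middle subunit, was at 331, 303 and 262 CPM and then 182, 177 and 154 CPM (log2 fold change -0.80 ± 0.15 SE, edgeR adjusted p = 0.00084). Both were apart between genotypes. *RFA3* (YJL173C), the small subunit, was at 301, 447 and 357 CPM and then 167, 213 and 171 CPM (log2 fold change -1.0 ± 0.17 SE, edgeR adjusted p = 0.00024). *RFA3* had the highest level per kb of the 49 genes in wild type, 998 ± 200 (SD, n = 3), and the third highest in *ime4-cat*, 497 ± 68.5 (SD, n = 3), below *RNR4* and *RNR2*. The call of *RFA1* was lost without *ime4-cat* replicate 3 (edgeR adjusted p = 0.052; 8.8e-07 to 0.052 over 13 alternatives).

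**Figure D2:**
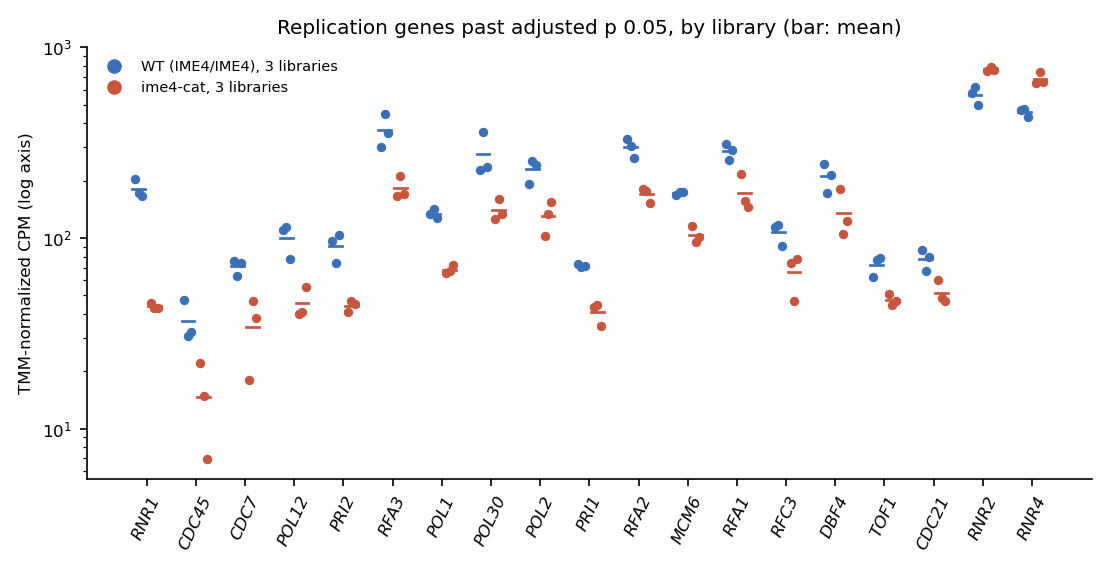
TMM-normalized CPM in polysomal RNA (vertical, log axis) of the 19 replication genes with an edgeR adjusted p under 0.05, ordered by fold change; points are the 3 wild-type (blue) and 3 *ime4-cat* (red) libraries and bars are their means. The colours are apart for every gene except *DBF4*, whose highest *ime4-cat* library (181 CPM) is above its lowest wild-type library (172 CPM), and only *RNR2* and *RNR4* are higher in *ime4-cat*.

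Among the genes of ribonucleotide reductase, *RNR1* fell, *RNR2* and *RNR4* rose and *RNR3* was not called. The active form of the enzyme pairs large subunits, mostly Rnr1 with the damage-inducible Rnr3 as an alternative, with small subunits made of Rnr2 and Rnr4. *RNR1* (YER070W), on chromosome V from 298950 to 301616, was at 204, 172 and 166 CPM in wild type and 45.4, 42.9 and 43.2 CPM in *ime4-cat*. This was 4.1-fold lower in *ime4-cat*, with libraries close together within each genotype and far apart between them (log2 fold change -2.04 ± 0.18 SE, edgeR adjusted p = 8.2e-08), and the call was kept under all 13 alternatives with log2 fold changes from -2.10 to -1.94. *RNR2* (YJL026W) was at 576, 617 and 501 CPM in wild type and 750, 792 and 761 CPM in *ime4-cat* (log2 fold change 0.45 ± 0.14 SE, edgeR adjusted p = 0.032). *RNR4* (YGR180C) was at 467, 478 and 432 CPM and then 652, 742 and 656 CPM (log2 fold change 0.57 ± 0.14 SE, edgeR adjusted p = 0.0061). Neither overlapped between genotypes. The call of *RNR4* was lost without wild-type replicate 3 (edgeR adjusted p = 0.059; 9.5e-07 to 0.059 over 13 alternatives) and that of *RNR2* without wild-type replicate 1 or 3 or *ime4-cat* replicate 2 or 3 (5.1e-05 to 0.20 over 13 alternatives).

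*RNR3* (YIL066C) was at 106, 111 and 101 CPM in wild type and 175, 112 and 123 CPM in *ime4-cat*. Every *ime4-cat* library was above wild type, 1 of them by little, and the log2 fold change of 0.40 ± 0.18 (SE) did not pass (edgeR adjusted p = 0.13), although it did with the replicate number as a block (edgeR adjusted p = 0.028; 0.028 to 0.65 over 13 alternatives). *RNR1* and *RNR3* are paralogs, and the files list non-unique alignments in an entry of their own, apart from any gene. Per kb of gene, the ratio of *RNR1* to *RNR3* was 1.88, 1.52 and 1.60 in wild type and 0.254, 0.375 and 0.345 in *ime4-cat*, so that *RNR1* exceeded *RNR3* in every wild-type library and was below it in every *ime4-cat* library. The ratio of *RNR1* to *RNR2* per kb was 0.159, 0.125 and 0.149 in wild type and 0.0273, 0.0244 and 0.0255 in *ime4-cat*. The ratio of the small subunits, *RNR4* to *RNR2*, was 0.943 ± 0.0519 and 1.03 ± 0.0477 (SD, n = 3 each). The first and second ratios separated the genotypes completely (two-sided exact permutation p = 0.1 for each, the smallest possible), and the third did not (p = 0.2 by the same exact test). Over 10 such ratios of gene pairs these p-values were not adjusted, since none could pass at this number of libraries. Of the pairs not given here, *RNR1* to *RNR4* separated the genotypes (exact permutation p = 0.1). *POL1* to *POL2* (p = 0.5), *PRI1* to *PRI2* (0.2), *RFA1* to *RFA2* (0.7) and *CDC7* to *DBF4* (0.7) overlapped by the same exact test.

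**Figure D3:**
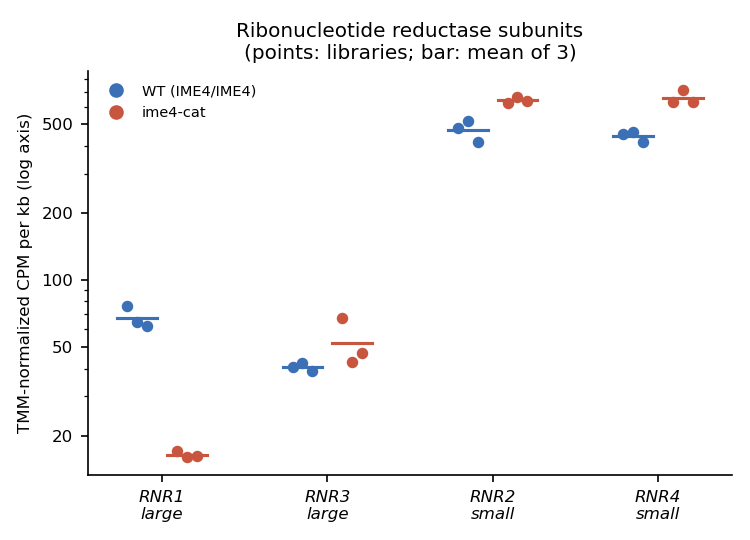
TMM-normalized CPM per kb of gene (vertical, log axis) of the 4 ribonucleotide reductase genes in each of 3 wild-type (blue) and 3 *ime4-cat* (red) libraries, with bars for the means. *RNR1* drops from a mean of 67.7 to 16.4 and crosses below *RNR3*, while *RNR2* and *RNR4* lie higher in *ime4-cat* than in wild type.

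*CDC21* (YOR074C), thymidylate synthase, was at 87.0, 67.6 and 79.3 CPM in wild type and 60.2, 48.5 and 46.6 CPM in *ime4-cat* (log2 fold change -0.58 ± 0.19 SE, edgeR adjusted p = 0.044). *TOF1* (YNL273W), which steadies stalled forks, was at 62.5, 76.8 and 78.5 CPM and then 50.7, 44.7 and 46.6 CPM (log2 fold change -0.60 ± 0.20 SE, edgeR adjusted p = 0.040). Both separated between genotypes but lay near the threshold. The call of *CDC21* was lost with DESeq2 or its size factors and without wild-type replicate 1 or 3 or *ime4-cat* replicate 2 or 3 (adjusted p 0.0071 to 0.17 over 13 alternatives, from edgeR, limma or DESeq2). That of *TOF1* was lost with DESeq2 and without any library except wild-type replicate 1 (0.012 to 0.17 over the same 13). The other fork and Okazaki fragment factors were not called: *MRC1*, the checkpoint mediator at the fork, *CTF4*, which couples helicase and polymerase alpha, *RAD27*, the flap nuclease, and *CDC9*, the ligase, had log2 fold changes from -0.33 to 0.15.

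The genes that held an MCB in the 250 bases before the start codon were called lower in 11 of 23 cases and higher in none, with a median log2 fold change of -0.58. Those without it there were called lower in 6 of 26 cases and higher in 2, with a median of -0.20. The 6 were *RNR1*, *CDC7*, *RFA3*, *PRI1*, *MCM6* and *RFC3*, and the 2 were *RNR2* and *RNR4*, and no match says only that these letters are not in this window. Among all genes tested with a promoter sequence, the 49 included, 27.7% of the 159 with an MCB were lower, against 8.75% of the 5061 without. The 159 hold the 23 replication genes and their 11 calls. An MCB did not go with a fall in each case, since *RNR3*, *POL31*, *MRC1*, *CTF4* and *SLD2* hold it and had log2 fold changes from 0.04 to 0.40, none called. The shorter core ACGCG, searched on both strands and contained in every MCB, was in 33 of the 49 promoters (67.3%) and in 783 of the 6001 promoters of the genome. GCCGCC, the core of URS1, also searched on both strands, was in 4 (*MCM4*, *MCM5*, *ORC1* and *POL31*; 8.16%) against 4.17% of all promoters, and none of these 4 genes was called. Among all genes tested, these included, 32.9% of the 216 with the URS1 core were however lower, against 8.31% of the 5004 without.

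**Figure D4:**
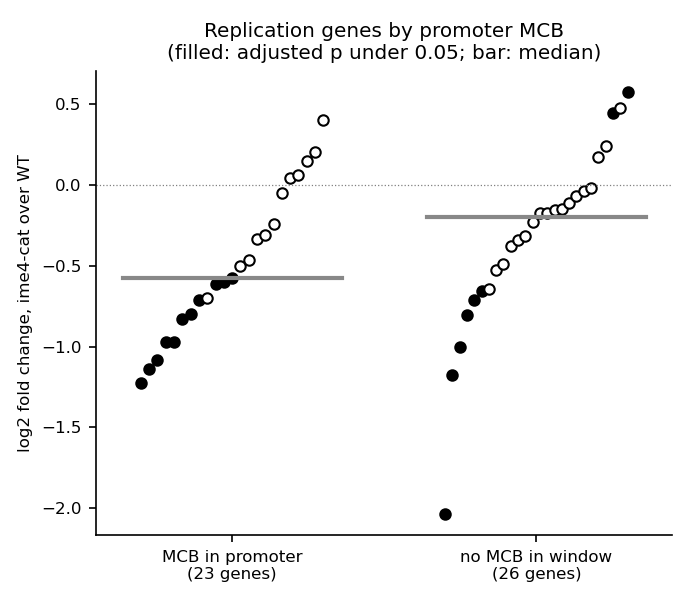
Log2 fold change of *ime4-cat* over wild type (vertical) of the 23 replication genes with an MCB in the 250 bases before the start codon (left) and the 26 without it there (right); each point is a gene, filled where the edgeR adjusted p was under 0.05, and bars are medians. The medians are -0.58 and -0.20, *RNR1* is the lowest point and lies on the right, and the 2 filled points above 0 are *RNR2* and *RNR4*.

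The wider pathway held further called genes, where 9.38% of all genes tested were lower and 8.28% higher. Of 16 other replication genes, 14 were tested and 3 were lower, none higher: *DPB4*, a polymerase epsilon subunit (log2 fold change -0.99, edgeR adjusted p = 0.00023), *CSM3*, the partner of Tof1 (-0.94, 0.0066), and *RNH201*, a subunit of ribonuclease H (-0.91, 0.0027). Of 8 other nucleotide supply genes, 7 were tested and 2 were lower: *DUT1*, the dUTPase (-1.07, 0.0018), and *DIF1*, which governs where the small reductase subunits reside (-1.05, 0.0017). *SML1*, the inhibitor of Rnr1, was at a log2 fold change of -0.01 (edgeR adjusted p = 0.98). Of 6 genes of G1/S transcription factors and their regulators, *SWI4*, the DNA-binding subunit of SBF (-1.26, 4.6e-05), and *NRM1*, a corepressor of MBF (-1.66, 0.0019), were lower and *SWI6*, shared by SBF and MBF, was higher at the margin of the threshold (0.51, 0.0497), while *MBP1*, the DNA-binding subunit of MBF, was not called (0.17, 0.65). The medians of these lists were -0.21, -0.03 and -0.10, beside -0.34 for the 49 replication genes and -0.01 over all genes tested.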

How the data were processed

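The deposited files hold read counts per gene that the authors made from RNA-seq of polysomal and total mRNA, with no normalization. Per the submitters' processing notes the tools include TopHat2 and the build is sacCer3 (R64); the counting program and its strand setting are not given in the sources used here. Closing entries that name no gene (5 per library) were left out: in the 6 libraries tested, non-unique alignments were 85.2 to 94.3% of all entries, reads on no gene 3.22 to 8.28% and ambiguous reads 0.0132 to 0.0327%. The 49 genes and the other gene lists were chosen with earlier results of these data known.

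Counts were tested with edgeR 4.0.16 (TMM, filterByExpr, quasi-likelihood test, two-sided, Benjamini-Hochberg over 5493 genes, R 4.3.3), with a call at an adjusted p under 0.05. The common biological coefficient of variation was 0.126. Alternatives used DESeq2 1.42.0 and limma 3.58.1 (prior count 2), other filters, other scaling, a replicate block and each library left out in turn. In a fit to simulated counts for this comparison, 185 of 196 changed genes among 5439 tested were recovered, with 11 false calls. Recovery at the fold changes of the 49 genes was not tested. The replicates differed by more than sampling noise (chi-square per degree of freedom 2.27 to 5.21). Genes were named by rule: the 49, with library values for those called and for the 3 highest and 3 lowest per kb, and at most 3 genes of each other list. Values of *ORC4*, *MCM5*, *POL3*, *RNR3*, *SML1* and *MBP1* were chosen after they were seen. Levels per kb use the RefSeq gene span, introns included. RefSeq R64 matched 6048 of 7126 gene IDs and all 49, and annotates no gene that overlaps any of the 49; open reading frames it does not list were not checked. Gene starts there are start codons. Promoters were read from that genome.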

Additional observations from a re-analysis of the deposited data

How the results depend on the processing

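Of the 19 called replication genes, 10 (all lower: *RNR1*, *RFA3*, *POL1*, *PRI2*, *POL12*, *POL30*, *RFA2*, *POL2*, *CDC7* and *MCM6*) kept the call under all 13 alternatives, 9 lost it under at least 1, and none changed direction. The number called lower was 12 at an adjusted p under 0.01, 13 with DESeq2, 16 to 19 under the other settings and 11 to 17 with a library left out. The number higher was 2, or 1 at an adjusted p under 0.01, 3 with the replicate block and 0 to 2 with a library left out. Their median log2 fold change ran from -0.43 to -0.30. Over all genes, 214 were higher and 298 lower at an adjusted p under 0.01, 334 and 340 with DESeq2 (adjusted p undefined for 426 genes), 805 and 800 with the replicate block, and 203 to 478 and 307 to 488 with a library left out, the fewest without wild-type replicate 3 (203 and 308) and *ime4-cat* replicate 3 (270 and 307). Library sizes alone lowered the share of calls that were higher from 46.91% to 36.85% and the median of all genes to -0.06. After each genotype's mean was subtracted, same-numbered libraries of the 2 genotypes correlated at 0.502, 0.485 and 0.0825 over 3464 genes. Differently numbered ones correlated at -0.505 to 0.0074. Same-numbered libraries were thus the more alike for numbers 1 and 2, while for number 3 the value was near 0. Subtracting a mean of 3 libraries ties these correlations to one another, and what the libraries share was not tested. The main fit did not treat the numbers as pairs. The replicate block, which called 19 members lower and 3 higher, is given as an alternative. Fold changes near 0 changed sign in 11 uncalled genes: *SLD2* (-0.012 without TMM, -0.036 with limma), *POL3* (0.013 with the block), and with a library left out *SLD2* (-0.23 to 0.28), *POL3* (-0.32 to 0.17), *SLD3* (-0.23 to 0.065), *RFC1* (-0.46 to 0.14), *RFC5* (-0.38 to 0.045), *ORC2* (-0.091 to 0.042), *ORC6* (-0.35 to 0.0096), *DPB11* (-0.30 to 0.023), *MCM7* (-0.22 to 0.028), *MRC1* (-0.032 to 0.28) and *CTF4* (-0.070 to 0.19). The causes were not tested. With 4 to 710 counts per gene and library, fold changes of the scarcest genes, such as *ORC3*, *CDC6* and *CDC45*, are the least precise.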

Other observations

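The 12 RNA-seq libraries whose titles disagree with their strain number or letter are given by both labels, with no test, on a CPM scale set over all 18 libraries. Their summed level of the 49 replication genes ran from 5230 to 6392 CPM. *RNR1* was at 60.0, 72.4 and 154 CPM in the libraries titled WT input 1, 2 and 3, which carry the strain number of the *ime4-cat* polysome libraries with the letter t in place of p. It was at 315, 318 and 362 CPM in those titled *rme1-10* polysome 1, 2 and 3, which carry the strain number of the wild-type polysome libraries with the letter t. It was at 198, 166 and 175 CPM in those titled *rme1-10* input and at 212, 289 and 275 CPM in those titled *ime4-cat* input, which carry another strain number with the letters p and t. On the same scale it was 168 to 207 CPM in the 3 wild-type polysome libraries and 43.8 to 46.5 CPM in the 3 *ime4-cat* polysome libraries. The per-kb ratio of *RNR1* to *RNR3* was 0.489, 0.554 and 0.947 in the libraries titled WT input, with the *ime4-cat* strain number, and 1.68 to 4.48 in the other 9. The early meiotic gene *DMC1* was at 568, 487 and 861 CPM in the former and at 979 to 1605 CPM in the latter. *POL1* was at 57.2, 69.1 and 77.1 CPM in the former and at 102 to 149 CPM in the latter. In the 3 wild-type polysome libraries *DMC1* was at 1378 to 1477 CPM and *POL1* at 129 to 143 CPM. In the 3 *ime4-cat* polysome libraries they were at 408 to 447 CPM and 67.1 to 73.6 CPM. Which label of the 12 libraries is right was not tested.

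Of 7 middle sporulation genes, 4 were tested and 2 were lower in *ime4-cat* polysomal RNA: *NDT80*, the activator of the middle genes (log2 fold change -1.15, edgeR adjusted p = 0.0094), and *SPR28*, a septin of the spore (-2.28, 0.00099). *SPR28* had few counts, 44, 14 and 30 in wild type and 8, 3 and 1 in *ime4-cat*, so its fold change is imprecise. Of all genes tested, 9.38% were lower.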
